A study of Mus musculus with 3 samples.

Results

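Endothelial cells that carried transcripts of dividing cells were described in droplet scRNA-seq counts of the mouse metaphysis, the growing zone of a long bone below the growth plate. The cells were selected on measured transcripts, and a cell of either metaphyseal library was a member when at least 2 of the 5 endothelial genes *Pecam1*, *Cdh5*, *Kdr*, *Tie1* and *Egfl7* were detected, when *Laptm5* and *Tyrobp*, which mark myeloid cells, gave at most 1 UMI together, and when *Top2a*, *Mki67*, *Birc5*, *Cdk1* and *Ccnb2* summed to at least 5 UMIs. A UMI is a molecular tag that counts each captured transcript once. The gate found 145 cycling endothelial cells among 2086 endothelial cells, 4386 cells of both metaphyseal libraries and 15628 cells of the series. The other 1941 endothelial cells, with a cycle sum below 5 UMIs, served as the comparison.

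Both metaphyseal libraries, replicates 1 and 2, came from untreated C57BL/6 wild-type mice (C57BL/6J in the methods) in postnatal week 3, whose femoral and tibial metaphysis was digested and depleted of haematopoietic lineage, CD45+ and CD117+ cells. The remaining library held GFP+ cells sorted from the metaphysis and epiphysis of *Pdgfra-GFP* mice of the same age and strain, which are heterozygous for a nuclear H2B-GFP reporter in the *Pdgfra* locus, a gene of mesenchymal stromal cells. The labels call the metaphyseal cells mesenchymal stromal cells, although 2086 of the 4386 cells kept passed the endothelial gate. A barcode counted as a cell from 1500 detected genes on in the metaphysis and from 1000 on in the *Pdgfra-GFP* library. The libraries held 25243314, 22082735 and 91747759 UMIs, of which 19145103, 16500253 and 75322404 were in the 2382, 2004 and 11242 cells kept. The number of animals behind a library is not given in the sources used here, so p-values cannot be read as covering the spread between animals. In the main edgeR fit they rest on the spread of the population sums left after differences between libraries are removed. That fit had 3 residual degrees of freedom and a prior of 9.68 degrees of freedom.

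Endothelial cells line blood vessels, and a growing bone keeps adding them as vessels follow the retreating cartilage. Arterial, capillary and sinusoidal segments carry different surface receptors and junction proteins. A dividing cell copies its DNA in S phase, using helicases, polymerases and nucleotide enzymes, and then builds a spindle in G2 and M phase from kinesins, cyclin B and kinetochore proteins.

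The share of cycling cells was alike in both libraries. Of 1167 endothelial cells of replicate 1, 80 were cycling (6.86%, exact 95% binomial interval 5.47 to 8.46), and of 919 in replicate 2, 65 were (7.07%, 5.50 to 8.93). These intervals cover counting error only. Among stromal cells, taken as cells with at least 2 of *Pdgfra*, *Pdgfrb*, *Col6a3*, *Twist1* and *Prrx1* and at most 1 endothelial UMI, 36 of 1004 (3.59%, 2.52 to 4.93) and 25 of 912 (2.74%, 1.78 to 4.02) met the same cycle sum. The endothelial intervals lay above the stromal ones in both libraries.

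Cycle sums ran on across the threshold without a gap, and most members lay well above it. The median member held 15 UMIs of the 5 cycle genes in either library, and the highest held 69 and 70. Just inside the threshold, 4 members of replicate 1 and 1 of replicate 2 had exactly 5 UMIs. Just outside it, 8 and 6 endothelial cells had 4 UMIs. At 10 or more UMIs stood 58 and 47 members, whereas 915 and 718 endothelial cells had none.

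The genes of the gate are given as a description, since they chose the cells. Levels are given as CPM, the UMIs of a gene scaled to the total of the summed population. *Top2a*, the topoisomerase that untangles replicated DNA, stood at 565 and 571 CPM in the members of replicates 1 and 2 and at 4.79 and 7.59 CPM in the other endothelial cells. *Mki67*, which coats mitotic chromosomes, stood at 662 and 577 against 3.19 and 4.34 CPM. *Birc5*, a subunit of the chromosomal passenger complex, was detected in 74 of 80 and 54 of 65 members. *Cdk1*, the mitotic kinase, was detected in 49 of 80 and 50 of 65 members, and also in 110 of 1087 and 83 of 854 other endothelial cells. No single cycle gene was thus present in all members. The gate also fixed much of the endothelial side, where *Cdh5*, the junctional cadherin, was detected in 79 of 80 and 62 of 65 members, at 1141 and 1077 CPM against 1339 and 1373 CPM in the other cells.

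The promoters of these 5 genes are shown because the genes define the cells, and their joint rise was set by the gate. They are the 200 bases before the gene start in RefSeq (GRCm38.p6), written 5′ to 3′ along the gene. Capitals mark CCAAT, the letters of the NF-Y box, and TTTGAA or TTTAAA, the letters of the cell cycle genes homology region, on either strand.
Top2a (chr11:99024190-99024389, minus strand): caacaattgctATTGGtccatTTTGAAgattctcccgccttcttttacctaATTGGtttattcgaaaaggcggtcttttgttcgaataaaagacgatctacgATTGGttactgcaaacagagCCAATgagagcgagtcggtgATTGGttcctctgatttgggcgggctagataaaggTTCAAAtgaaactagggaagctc
Mki67 (chr7:135716380-135716579, minus strand): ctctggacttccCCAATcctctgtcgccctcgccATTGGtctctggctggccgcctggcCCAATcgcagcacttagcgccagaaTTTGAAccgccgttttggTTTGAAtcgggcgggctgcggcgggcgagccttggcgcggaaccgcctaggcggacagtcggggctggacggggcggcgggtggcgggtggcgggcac
Cdk1 (chr10:69352913-69353112, minus strand): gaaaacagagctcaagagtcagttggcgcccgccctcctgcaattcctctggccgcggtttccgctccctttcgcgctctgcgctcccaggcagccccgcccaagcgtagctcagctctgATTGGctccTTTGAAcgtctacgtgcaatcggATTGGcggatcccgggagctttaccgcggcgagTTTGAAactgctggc
Ccnb2 (chr9:70421555-70421754, minus strand): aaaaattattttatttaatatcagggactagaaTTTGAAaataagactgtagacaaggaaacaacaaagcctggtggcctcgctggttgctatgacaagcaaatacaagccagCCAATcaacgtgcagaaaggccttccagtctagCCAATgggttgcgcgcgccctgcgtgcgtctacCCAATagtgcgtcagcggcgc
Birc5 (chr11:117849037-117849236, plus strand): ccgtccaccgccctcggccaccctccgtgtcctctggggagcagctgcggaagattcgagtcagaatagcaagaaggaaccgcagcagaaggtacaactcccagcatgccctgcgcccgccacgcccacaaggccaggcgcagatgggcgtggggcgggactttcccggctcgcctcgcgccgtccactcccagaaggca
CCAAT occurred in 4 of these 5 promoters, and so did TTTGAA or TTTAAA. *Birc5* held none of these letters in the window. Of the 30 genes of a mitosis list, 24 had a promoter in the table, and 20 of those held CCAAT (83.3%), against 8112 of 27025 genes of the table (30.02%). TTTGAA or TTTAAA was in 11 of the 24 (45.8%), against 20.2% of all genes. Of 21 promoters of DNA replication genes, 13 held CCAAT (61.9%), 3 held TTTGAA or TTTAAA (14.3%) and 3 each held the E2F site letters GGCGGGAA (14.3%, against 1.69% of all genes) and TTTGGCGC (14.3%, against 0.359%). A match describes letters and not a bound site.

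Most members carried more transcripts of mitosis than of replication. The mitosis list summed to a median of 36 UMIs per member in replicate 1 and 38 in replicate 2, and the replication list to 6 and 9. The mitosis sum exceeded the replication sum in 72 of 80 members and 49 of 65. After each cell was thinned to 3000 UMIs, so that depth was equal, it did so in 67 of 77 and 48 of 64. All members had a mitosis UMI, while 5 and 3 had no replication UMI. At full depth the lowest members held 4 and 3 mitosis UMIs, and the highest of the other endothelial cells held 37 and 39. The 5 cycle genes of the gate are mostly genes of late phases, and endothelial cells outside it included some with many replication transcripts. Of the other endothelial cells, 15 of 1050 and 11 of 833 held at least 10 replication UMIs at the thinned depth, against 15 of 77 and 21 of 64 members. The compared cells thus held a few with as many replication transcripts as the upper members.

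**Figure D1:**
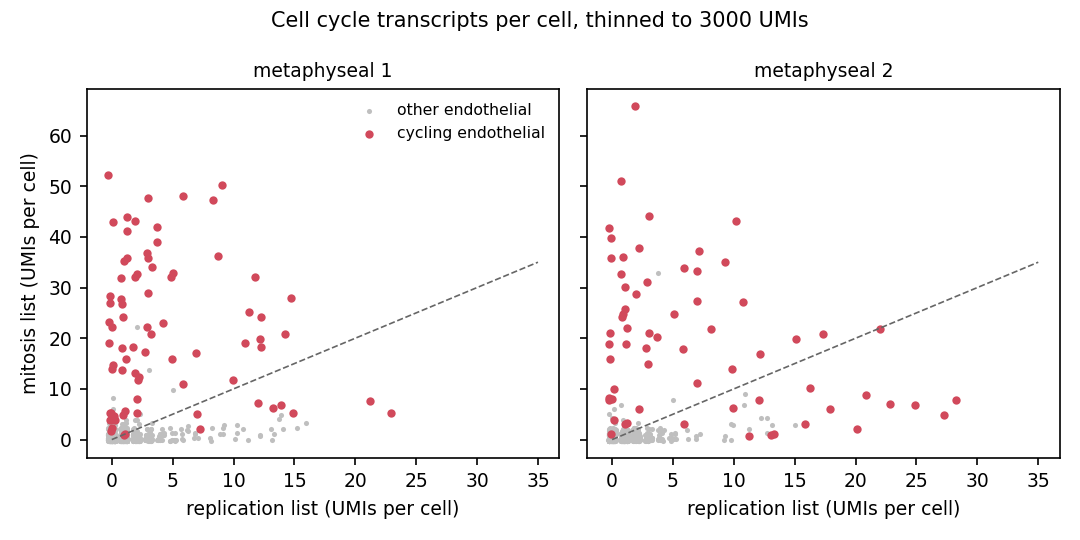
Each point is an endothelial cell thinned to 3000 UMIs, with its summed UMIs of the replication list (horizontal) and of the mitosis list (vertical) in each metaphyseal library, slightly jittered. Cycling cells (red) mostly lie above the dashed line of equality, and a few other endothelial cells (grey) reach 10 or more replication UMIs with few mitosis UMIs.

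Several properties moved with membership and bear on the values that follow. Members were deeper, with a median of 7469 and 6883 UMIs against 5825 and 6081 in the other endothelial cells. Scrublet called 1 of the 80 members and none of the 65 as doublets, and 4 and 1 members held at least 2 of the 5 stromal genes. RNA of other cells sat in single members. In replicate 1, 1 member held 62.8% of the 7749 UMIs of a stromal list of 9 genes in all members, led by *Col1a1* at 7065 CPM, with *Postn* at 0. The list summed to 12128 and 1070 CPM in the members of the replicates and to 5456 and 5097 CPM in the other cells. In replicate 2, 1 member held 99.5% of the 1821 UMIs of a chondrocyte list of 5 genes, led by *Col2a1* at 2723 CPM. Among the other cells, 1 cell held 94.5% of the UMIs of this list in replicate 1 and 51.1% in replicate 2. This list summed to 7.83 and 3324 CPM in the members, against 307 and 717 CPM in the other cells, so its direction differed between the replicates. So did that of a 5-gene osteoblast list, at 975 and 124 against 569 and 1111 CPM. A 6-gene erythroid list led by *Hbb-bs* was lower in members of both replicates, at 100.2 and 89.4 against 149 and 1401 CPM. None of its 5 tested genes was called, but with endothelial sums only 4 of 4 fell. In the other cells of replicate 2, single cells held 59.0% of the osteoblast and 47.1% of the erythroid UMIs. An 8-gene haematopoietic list summed to 21.9 and 124 CPM in members, with *Ptprc*, *Cd52*, *Coro1a*, *Spi1*, *C1qa* and *Cd79a* at 0 in replicate 1, and *Cd79a* leading in replicate 2 at 45.6 CPM. It summed to 35.7 and 32.5 CPM in the others. The part of erythroid and osteoblast RNA in the results was not tested. Counts below were therefore also computed without the endothelial cells that held 10 or more UMIs of *Col1a1*, *Col1a2* and *Col2a1* or any of *Cd79a* (8 members and 67 others), a choice made after seeing the data. No cell barcode was shared between the metaphyseal libraries, and none of the 9 and 10 barcodes shared with the *Pdgfra-GFP* library was a member.

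Which vessel type do cycling cells resemble? Each endothelial cell was classed by 6 markers each of arterial (*Gja4*, *Gja5*, *Sema3g*, *Sox17*, *Bmx*, *Efnb2*), capillary (*Aplnr*, *Ramp3*, *Rgcc*, *Gpihbp1*, *Cd300lg*, *Car4*) and sinusoidal cells (*Stab2*, *Stab1*, *Mrc1*, *Vcam1*, *Flt4*, *Adamts5*). None of these is in the gate, and a class needed at least 2 of its markers and more than of any other class. The shares by class and the levels of these markers rest on the same transcripts and are not independent of each other. The cycling share was larger among capillary-like than among sinusoidal-like cells of both libraries. In replicate 1, 43 of 436 capillary-like cells were cycling (9.86%, 7.23 to 13.1), against 17 of 505 sinusoidal-like cells (3.37%, 1.97 to 5.34). In replicate 2, 32 of 309 capillary-like (10.4%, 7.19 to 14.3) and 20 of 418 sinusoidal-like cells (4.78%, 2.95 to 7.29) were. The intervals of the classes did not overlap in replicate 1 and overlapped slightly in replicate 2. Unclassed cells cycled in 18 of 144 (12.5%) and 9 of 127 (7.09%). With 2 libraries no permutation test can pass 0.05, and none was run.

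Seen from the members, 53.8% (42.2 to 65.0) and 49.2% (36.6 to 61.9) were capillary-like, against 36.2% and 32.4% of the other endothelial cells. Sinusoidal-like cells made up 21.2% (12.9 to 31.8) and 30.8% (19.9 to 43.4) of members, against 44.9% and 46.6% of the others. Arterial-like members were few, 2 of 82 arterial-like cells (2.44%, 0.297 to 8.53) and 4 of 65 (6.15%, 1.70 to 15.01), too few to place beside the other classes. Cells in no class were 22.5% and 13.8% of members, mostly through ties (15 and 5 cells), and 23 and 22 members owed their class to a margin of 1 marker. The median depth of capillary-like and sinusoidal-like cells was 6147 and 5625 UMIs in replicate 1 and 6254 and 6020 in replicate 2.

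**Figure D2:**
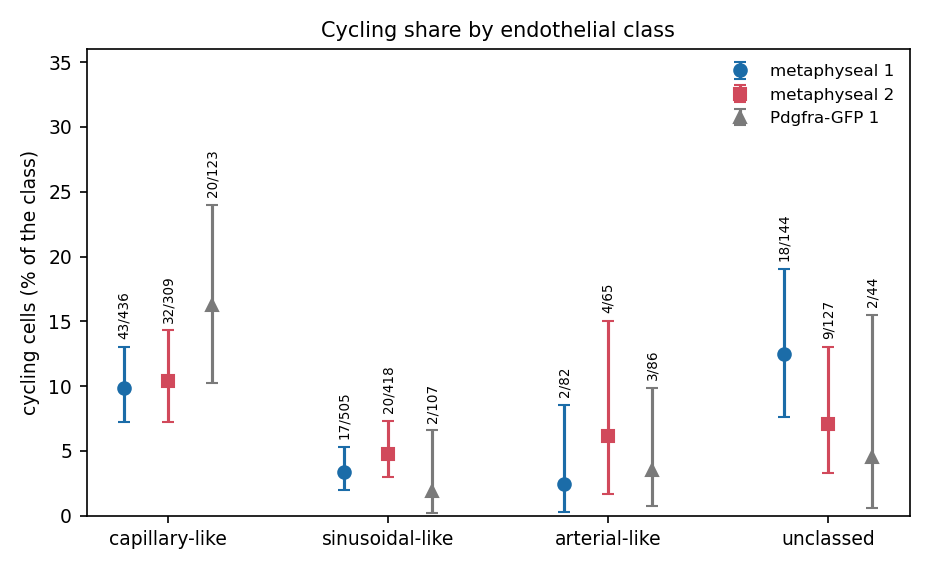
Points give the percent of each endothelial class that met the cycle sum in each library, bars the exact 95% binomial interval, and labels the cycling cells over the cells of the class. Capillary-like cells lie between 9.86% and 16.3%, and sinusoidal-like cells between 1.87% and 4.78%.

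To ask which genes differed, counts were summed per library and population, and the sums were compared over 12882 genes by the quasi-likelihood test of edgeR, with p-values adjusted after Benjamini and Hochberg. In the cycling cells 856 genes were higher (6.64% of genes tested) and 1136 lower (8.82%). The median log2 fold change of all genes was -0.18, so values near it mark genes that moved with the bulk of the transcriptome. With DESeq2 size factors that median was -0.10, and 962 genes were higher (7.47%) and 786 lower (6.10%), so that 55.0% of calls were higher instead of 43.0%. Without the collagen-rich and *Cd79a* cells 883 were higher (6.87%) and 1454 lower (11.3%). The count of lower genes fell to 452 after thinning to 3000 UMIs, 485 with the DESeq2 test, 546 with endothelial sums only and 661 with library sizes free of cycle genes, and 59.6% to 64.7% of calls were then higher. With DESeq2 size factors fewer genes were lower in the lists for capillary class markers (2), tip and bud genes (1), VEGF (6), BMP (5), Notch (1), flow (2), immediate early (4), osteoangiogenic (2), G1 (4) and interferon genes (7), and in the further sinusoidal list 11 were lower and 1 higher.

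Of 5 tested capillary class markers 3 fell and 2, *Aplnr* and *Ramp3*, did not pass the test. Of all genes 8.82% fell. *Aplnr*, the apelin receptor, stood at 751 and 705 CPM in cycling cells and at 749 and 753 CPM in the others (log2 fold change -0.16 ± 0.12 SE, edgeR adjusted p = 0.412). Its levels in the populations overlapped. *Ramp3*, a receptor activity-modifying protein, stood at 236 and 241 against 220 and 196 CPM (0.08 ± 0.16, edgeR adjusted p = 0.781). The sixth marker of the class, *Car4*, did not pass the filter on low counts. *Cd300lg*, a lipid-binding surface receptor, fell by 1.57 ± 0.17 on the log2 scale, from 194 and 167 CPM to 59.5 and 73.0 CPM (edgeR adjusted p = 2.73e-05). *Gpihbp1*, which carries lipoprotein lipase to the vessel wall, fell by 0.42 ± 0.12. *Rgcc* fell by 0.62 ± 0.13, and 70.04% and 70.1% of stromal cells also held it. *Car4* had 0 UMIs in the 145 members, which allows a UMI in up to 4.51% and 5.52% of cells and sets no limit on cells that express it, and 0 in the other endothelial cells. The median of the 5 genes was -0.42.

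In single cells, *Aplnr* was detected in 70 of 80 members (87.5%, 78.2 to 93.8) and 56 of 65 (86.2%, 75.3 to 93.5), and in 82.3% and 82.9% of the other endothelial cells. At 3000 UMIs per cell the shares were 77.9% and 76.6% against 74.3% and 72.5%. Stromal cells outside the cycle gate, which should lack the gene, had it in 1.65% and 2.03% at median depths of 6438 and 6518 UMIs. *Ramp3* was detected at the thinned depth in 48.1% (36.5 to 59.7) and 40.6% (28.5 to 53.6) of members, against 35.9% and 34.5% of the others. For *Ramp3* the member intervals held the value of the other cells in replicate 2 and missed it in replicate 1.

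Sinusoidal markers were lower. All 6 sinusoidal class markers fell, with a median log2 fold change of -1.45, where 8.82% of all genes fell. *Stab2*, the hyaluronan scavenger receptor of sinusoids, stood at 95.5 and 117 CPM in cycling cells and at 335 and 355 CPM in the others (-1.82 ± 0.18, edgeR adjusted p = 1.52e-05). *Adamts5*, a matrix protease, stood at 135 and 195 against 549 and 560 CPM (-1.88 ± 0.14, edgeR adjusted p = 6.18e-07). *Adamts5* was also in 44.8% and 42.6% of stromal cells, and the part of free RNA was not tested. The cycling levels lay below the others in both libraries for each of the 6. *Stab2* was detected, at 3000 UMIs, in 18.2% (10.3 to 28.6) and 12.5% (5.55 to 23.2) of members and in 40.1% and 40.3% of the others, and at full depth in 26.2% and 27.7% against 49.0% and 49.2%. Stromal cells had *Stab2* in 0.517% and 1.69% at full depth. *Vcam1*, an adhesion molecule, fell by 2.21 ± 0.27, but 77.8% and 79.0% of stromal cells also held it, and the part of free RNA in its levels was not tested. *Flt4*, the lymphatic and sinusoidal VEGF receptor, fell by 1.07 ± 0.14 and *Mrc1*, the mannose receptor, by 1.07 ± 0.15. *Stab1*, a second scavenger receptor, fell by 0.79 ± 0.15.

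A further list of sinusoidal genes held 15 members. Of these 13 were tested, 12 fell and none rose, with a median of -1.63, where 8.82% of all genes fell. *Il6st*, the shared signalling chain of interleukin-6 receptors, stood at 93.9 and 120 CPM against 456 and 459 CPM (-2.22 ± 0.14, edgeR adjusted p = 1.42e-07). *Ctsl*, a lysosomal protease, stood at 383 and 350 against 1262 and 1085 CPM (-1.79 ± 0.11, edgeR adjusted p = 7.51e-08). *Gpm6a* fell by 2.20 ± 0.23 and *Cd36*, a fatty acid and thrombospondin receptor, by 1.80 ± 0.17. The gene that did not pass was *Kitl*, the stem cell factor, at 166 and 208 against 140 and 124 CPM (0.38 ± 0.14, edgeR adjusted p = 0.0783). It is named here after its values were seen.

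Venous markers fell as well, 5 of 6 with a median of -2.08, where 8.82% of all genes fell. *Ackr1*, the chemokine-binding receptor of venules, had 0 UMIs in the members of replicate 1 and 10.95 CPM (6 UMIs) in replicate 2, against 139 and 123 CPM in the others (-4.80 ± 0.40, edgeR adjusted p = 3.81e-06). *Selp*, which holds rolling leukocytes, stood at 28.2 and 43.8 against 143 and 159 CPM (-2.20 ± 0.18). *Lrg1* stood at 199 and 204 against 712 and 739 CPM (-1.96 ± 0.13, edgeR adjusted p = 1.66e-07). *Nr2f2*, the transcription factor of venous identity, fell by 0.67 ± 0.12. Without the collagen-rich and *Cd79a* cells 6 of 6, 12 of 13 and 5 of 6 genes of these lists were lower, and 1 of the 13 was higher.

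**Figure D3:**
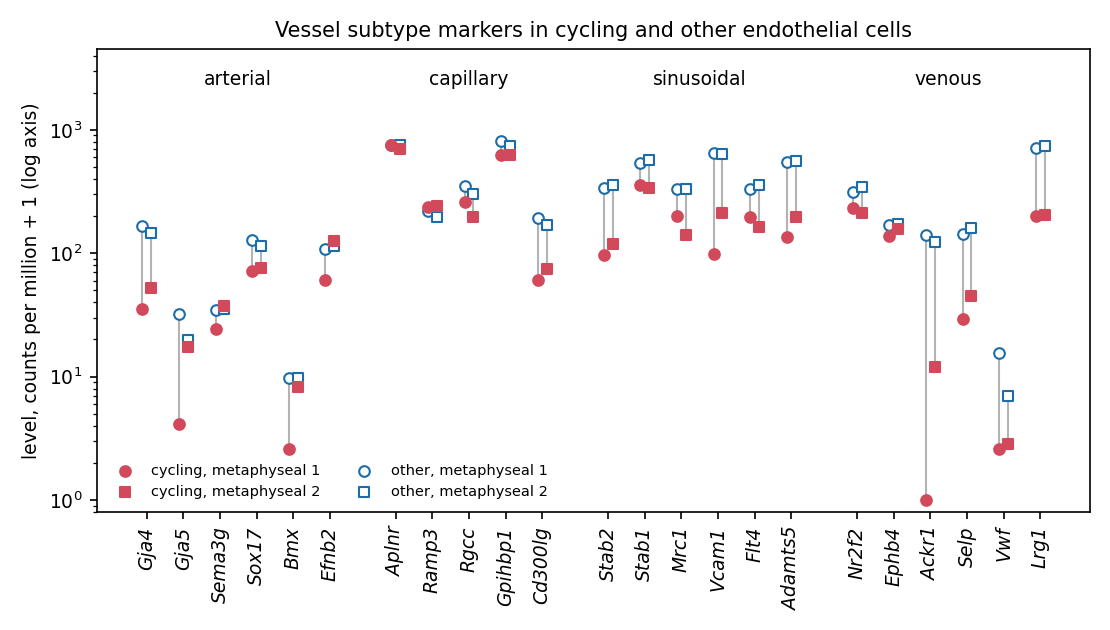
Levels of the tested arterial, capillary, sinusoidal and venous markers as CPM + 1 on a log axis, in cycling (red, filled) and other (blue, open) endothelial cells of replicate 1 (circles) and replicate 2 (squares). *Aplnr* overlaps between populations, *Ramp3* is slightly higher in cycling cells without passing the test, and each sinusoidal marker and *Ackr1*, *Selp* and *Lrg1* are lower in the cycling cells of both libraries.

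Arterial markers fell in part. Of 6 class markers 2 fell, with a median of -0.997, where 8.82% of all genes fell. *Gja4*, a gap junction protein of arteries, stood at 34.4 and 51.1 CPM against 164 and 146 CPM (-1.99 ± 0.20, edgeR adjusted p = 1.05e-05). *Sox17*, an arterial transcription factor, stood at 70.4 and 74.8 against 127 and 113 CPM (-0.84 ± 0.15, edgeR adjusted p = 0.00209). *Efnb2*, the arterial ephrin, did not separate the populations, at 59.5 and 124 against 108 and 114 CPM. Among 15 further arterial genes 5 fell and none rose, among them *Fbln5* (-1.98 ± 0.30) and *Igfbp3* (-1.08 ± 0.18). *Cxcl12*, the chemokine of arteries and stroma, fell by 1.54 ± 0.29, with 444 and 148 CPM in the members. It is also a gene of the stromal list above, and the part of stromal RNA in its levels was not tested. *Unc5b* fell by 1.04 ± 0.25 (-0.62 and not passing after thinning).

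Genes of tip cells and vessel buds, the leading edge of growing vessels, gave calls near the shares of all genes. Of 15 tested 1 rose and 2 fell, with a median of -0.14, where 6.64% of all genes rose and 8.82% fell. *Nid2*, a basement membrane linker, stood at 218 and 234 CPM against 144 and 148 CPM (0.52 ± 0.12, edgeR adjusted p = 0.0105). *Esm1*, a tip cell proteoglycan, stood at 17.2 and 5.48 against 66.2 and 44.1 CPM (-2.35 ± 0.48, edgeR adjusted p = 0.00484). *Esm1* was also in 64.5% and 67.4% of stromal cells, and the part of free RNA was not tested. *Dll4*, the Notch ligand of tip cells, stood at 42.3 and 69.4 against 74.7 and 67.0 CPM and *Pdgfb* at 68.9 and 113 against 107 and 109 CPM, with overlapping groups for both genes.

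General endothelial genes were slightly lower. Of 18 genes 12 fell and none rose, with a median of -0.45 against -0.18 for all genes. With DESeq2 size factors 6 fell, and the median was -0.37. Of all genes 8.82% fell, and 6.10% with DESeq2 size factors. *Clec14a*, a vessel adhesion protein, stood at 261 and 277 CPM against 553 and 553 CPM (-1.15 ± 0.12, edgeR adjusted p = 1.73e-05). *Sox18* fell by 0.92 ± 0.14, *Ptprb*, the phosphatase that restrains Tie2, by 0.72 ± 0.12 and *Cldn5*, a tight junction protein, by 0.57 ± 0.11. Of 12 genes of VEGF and angiopoietin signalling 7 fell, with a median of -0.50, among them the co-receptors *Nrp1* (-0.57 ± 0.11) and *Nrp2* (-0.51 ± 0.12).

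**Figure D4:**
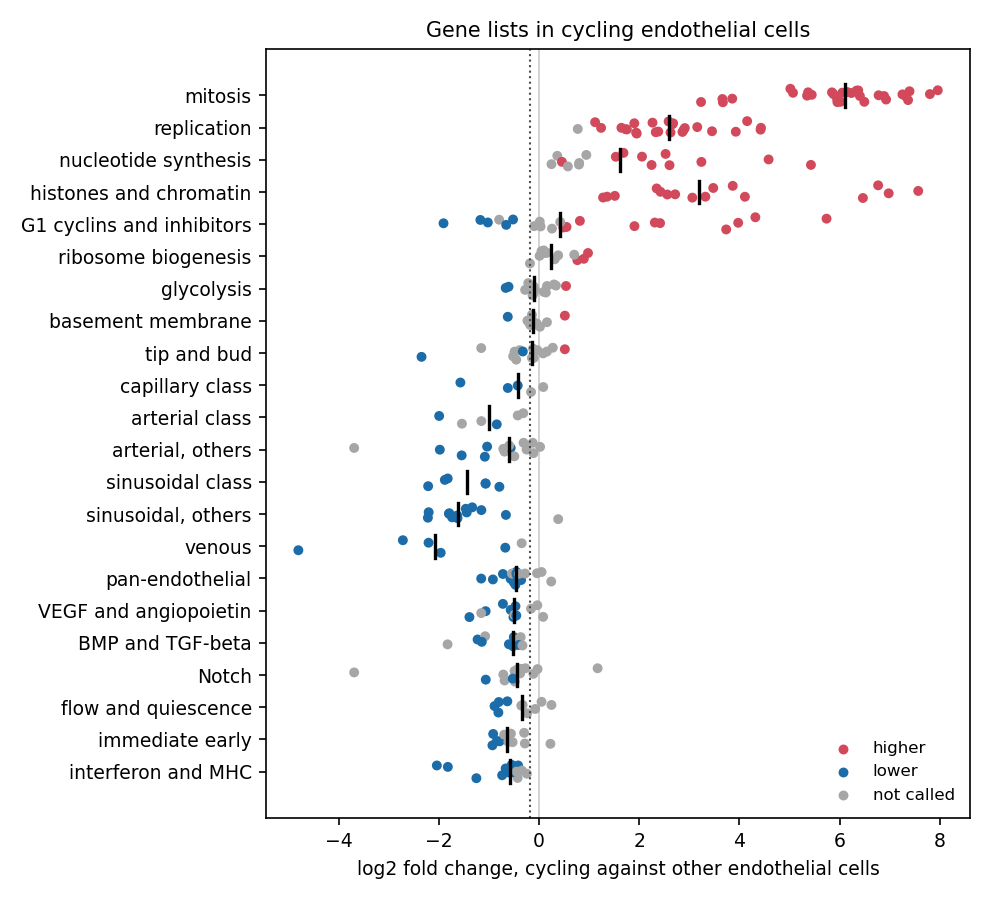
Each point is a tested gene of the list named at the left, at its log2 fold change between cycling and other endothelial cells, coloured by edgeR adjusted p under 0.05, with the list median as a black bar and the median of all genes (-0.18) as a dotted line. The cell cycle lists lie to the right, by the choice of the cells. Among the lists of vessel genes the sinusoidal and venous ones lie furthest to the left.

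The cell cycle lists followed the gate by construction, so their values are a description. All 30 genes of the mitosis list were higher, with a median log2 fold change of 6.10. *Hmmr*, a spindle protein, stood at 207 and 195 CPM against 1.02 and 0.361 CPM, *Nusap1* at 213 and 234 against 0.726 and 1.08 CPM, and *Prc1*, which bundles the central spindle, at 324 and 298 against 1.89 and 1.45 CPM. *Ccnb1*, cyclin B1, stood at 150 and 150 CPM against 0.726 and 0.903 CPM. Of 25 replication genes 24 were higher, with a median of 2.59, a smaller difference than for mitosis. *Cdc45* and *Prim1*, parts of the replicative helicase and primase, differed by 4.42 and 3.45, *Uhrf1* by 3.93 and the licensing factor *Cdt1* by 2.91. All 16 histone and chromatin genes were higher (median 3.19), led by *Hist1h1b* at 490 and 409 against 2.18 and 2.17 CPM. *Hist1h2ap* stood at 462 and 1079 CPM against 4.35 and 6.32 CPM, and *Hist1h2ae* and *Hist1h3c* differed by 6.77 and 6.46. Of 16 nucleotide synthesis genes 10 were higher (median 1.61). *Rrm2*, the regulated subunit of ribonucleotide reductase, stood at 141 and 139 against 3.19 and 2.71 CPM, and *Tk1* and *Rrm1* differed by 4.58 and 2.53.

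The regulators of the G1 phase did not move as a block. Of 21 cyclins, kinases, E2F factors and inhibitors 10 rose and 5 fell, with a median of 0.42. Of all genes 6.64% rose and 8.82% fell. *E2f8*, a repressor made in S phase, stood at 50.1 and 45.6 CPM against 1.02 and 0.542 CPM (5.74 ± 0.46). *Ccne2*, cyclin E2, stood at 23.5 and 82.1 against 2.47 and 1.99 CPM (4.32 ± 0.53) and *E2f1* at 23.5 and 51.1 CPM (2.42 ± 0.42). Each of these 3 is known to be switched on in dividing cells.

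An inhibitor of cyclin D kinases stood among the genes that rose. *Cdkn2c*, which encodes p18, stood at 152 and 173 CPM in cycling cells and at 10.9 and 11.6 CPM in the others (3.74 ± 0.15, edgeR adjusted p = 1.50e-09). *Cdkn2d*, which encodes the related p19, stood at 81.4 and 98.6 against 22.2 and 21.9 CPM (1.90 ± 0.16, edgeR adjusted p = 2.80e-06). The library sums of cycling and other cells did not overlap for either gene. *Cdkn1c*, which encodes the quiescence inhibitor p57, moved the other way, from 359 and 360 CPM to 78.3 and 135 CPM (-1.91 ± 0.28, edgeR adjusted p = 0.000423). The D cyclins, which start the cycle, fell in part, *Ccnd2* from 178 and 184 to 78.3 and 117 CPM (-1.02 ± 0.15) and *Ccnd1* from 158 and 146 to 116 and 115 CPM (-0.52 ± 0.15, edgeR adjusted p = 0.0327). *Cdkn2d*, *Cdkn1c*, *Ccnd1* and *Ccnd2* are named after their values were seen.

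Between cycling and other stromal cells 1247 genes were higher (9.68%) and 1101 lower (8.55%), and 3 of the 21 genes differed between the lineages. The stromal log2 fold change of *Cdkn2c* was 0.76, and the difference between lineages, 2.98 on the log2 scale, passed the test of the interaction (edgeR adjusted p = 7.70e-05). For *Cdkn2d* the stromal value was 0.72 and the difference 1.19 (edgeR adjusted p = 0.0169). *Ccnd1* had 1.38 in cycling stroma and -0.52 in cycling endothelium (-0.27 and not passing after thinning), a difference of -1.90 (edgeR adjusted p = 0.00143). Over all genes the interaction was called higher in endothelium for 130 (1.01%) and lower for 209 (1.62%), and without the library block for 100 and 101. The cycling stromal sums held 36 and 25 cells, with a median of 15981 and 16225 UMIs against 6438 and 6518 in other stromal cells. The interaction was not computed after thinning, and the part of depth in the lineage differences was not tested.

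**Figure D5:**
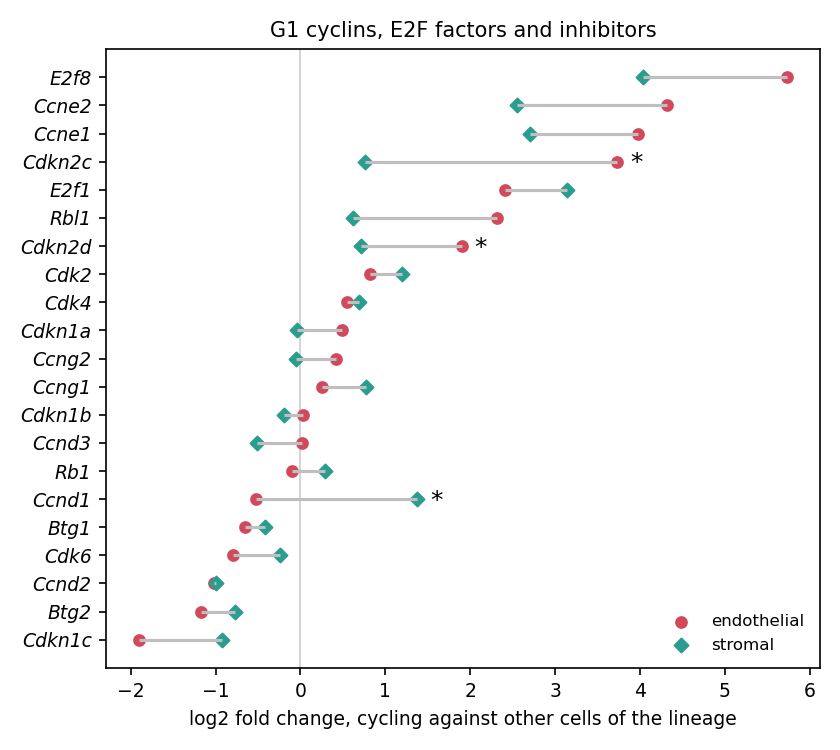
Log2 fold change between cycling and other cells for the 21 G1 regulators in endothelial cells (red circles) and stromal cells (green diamonds), with asterisks where the difference between lineages had an edgeR adjusted p under 0.05. *Cdkn2c*, *Cdkn2d* and *Ccnd1* carry an asterisk.

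Of 15 Notch genes 2 fell and none rose (median -0.44), a share near that of all genes (8.82%). *Hes1*, a direct Notch target, stood at 213 and 323 CPM against 473 and 549 CPM (-1.06 ± 0.18, edgeR adjusted p = 0.00102), and *Mfng*, which modifies Notch receptors, fell by 0.52 ± 0.14. Of 12 BMP and TGF-β genes 7 fell (median -0.51), led by *Tgfbr2*, the type II TGF-β receptor, at 73.6 and 119 against 186 and 199 CPM (-1.14 ± 0.15, edgeR adjusted p = 0.000181), with *Acvrl1* (-0.60 ± 0.16), *Eng* (-0.50 ± 0.11) and *Id2* (-0.52 ± 0.15). Of these BMP and TGF-β genes only 2 fell after thinning (median -0.46), and 3 with library sizes free of cycle genes or with endothelial sums only. *Acvrl1* (-0.32), *Eng* (-0.33) and *Id2* (-0.47) did not pass after thinning, nor did *Mfng* (-0.37), and *Id2* had 0.0059 in capillary-like cells. Of 10 genes of flow and quiescence 4 fell (median -0.34), *Txnip* by 0.89 ± 0.11, *Thbd*, the anticoagulant thrombomodulin, by 0.81 ± 0.14, *Klf4* by 0.80 ± 0.22 and *Foxo1* by 0.63 ± 0.18 (-0.55 and not passing after thinning).

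Immediate early genes, which respond to stress and to tissue digestion, had unlike values in the libraries. Of 12 genes 5 fell (median -0.64), and 10 fell without the collagen-rich and *Cd79a* cells. Of all genes 8.82% and 11.3% fell in these settings. *Fos* stood at 396 CPM against 1076 CPM in replicate 1 and at 898 against 1078 CPM in replicate 2. *Junb* stood at 336 against 804 CPM and at 684 against 780 CPM. The list median of the log2 ratio was -0.97 in replicate 1 and -0.10 in replicate 2, where all genes had -0.10 and -0.07. *Jund* fell by 0.84 ± 0.11 and *Ier3* by 0.93 ± 0.22, but *Ier3* had 0.024 in sinusoidal-like cells.

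Genes of growth and matrix are set beside all genes, of which 6.64% rose and 8.82% fell. The counts of the glycolysis and basement membrane lists below were near these shares. Of 12 ribosome biogenesis genes 3 rose and none fell (median 0.24), *Nop56* at 84.5 and 98.6 against 44.0 and 41.4 CPM (0.98 ± 0.19, edgeR adjusted p = 0.00341), *Nhp2* by 0.89 ± 0.15 and *Nop58* by 0.76 ± 0.18, all parts of small nucleolar RNA complexes. *Dkc1*, the pseudouridine synthase of some of these complexes, had 0.38 ± 0.18 and did not pass. Of 14 glycolysis genes *Pgk1* rose by 0.54 ± 0.15 and *Pfkl* and *Gpi1* fell by 0.67 ± 0.16 and 0.61 ± 0.14. After thinning *Pgk1* (0.53), *Pfkl* (-0.70) and *Gpi1* (-0.44) did not pass, and *Pfkl* had 0.059 in sinusoidal-like cells. *Gapdh* had 0.34 ± 0.11 and did not pass. Of 12 basement membrane genes *Nid2* rose and *Nid1* fell (-0.62 ± 0.15), while *Lamc1*, a laminin chain, stood at 139 and 161 against 152 and 173 CPM and *Hspg2*, perlecan, at 607 and 600 against 634 and 664 CPM.

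Of 14 genes of interferon response and antigen display 9 fell and none rose, with a median of -0.58, and 5 fell after thinning. Of all genes 8.82% fell, and 452 of 11440 after thinning. *H2-K1*, a class I MHC chain, stood at 207 and 142 CPM against 410 and 360 CPM (-1.25 ± 0.15, edgeR adjusted p = 5.44e-05). *Ifit3* stood at 7.83 and 12.8 against 30.8 and 35.8 CPM (-1.82 ± 0.33, edgeR adjusted p = 0.00209), *Bst2*, tetherin, fell by 0.74 ± 0.12 and *Isg15* by 0.67 ± 0.16. *Ifit3* (-1.56) and *Isg15* (-0.37) did not pass after thinning, and *Isg15* had 0.099 in sinusoidal-like cells. Of 9 genes by which bone vessels act on matrix and bone cells 3 fell, *Adamts1* (-0.87 ± 0.17), *Ctsb* (-0.81 ± 0.10) and the protease inhibitor *Timp3* (-0.68 ± 0.19). In this list 2 fell with DESeq2 size factors, 4 after thinning and 1 of 8 tested in capillary-like cells. *Igf1* had -0.90 ± 0.33 and did not pass. *Kcnj8*, a potassium channel gene listed as a mural marker, stood at 79.8 and 52.9 against 206 and 195 CPM (-1.69 ± 0.22). In the other endothelial cells it led a 6-gene mural list that summed to 217 and 205 CPM. Genes of that list were detected in 486 of 1087 and 375 of 854 of these cells, and the part of mural RNA was not tested. *Mmrn1*, the tested lymphatic gene, fell by 1.20 ± 0.28, but did not pass after thinning (-1.06), in capillary-like cells (-0.62) or in sinusoidal-like cells (-0.69).

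Outside all lists, the 10 highest genes were *Pimreg*, *Kifc1*, *Ska1*, *Cep55*, *Pbk*, *Mxd3*, *Kif2c*, *Esco2*, *Cdca2* and *Ckap2l*. The cells were chosen on cycle transcripts, so these values, like those of the cell cycle lists, are a description and not an independent result. *Pimreg* stood at 218 and 186 CPM against 0.435 and 0.723 CPM and *Pbk* at 116 and 111 against 0.145 and 0.903 CPM. Both reached the required mean of 20 CPM only through the cycling sums. The 10 lowest included the following. *Lipg*, endothelial lipase, stood at 6.26 and 10.95 against 84.6 and 98.7 CPM (-3.54 ± 0.31, edgeR adjusted p = 5.91e-06), and *Thrsp*, a lipid synthesis factor, at 4.70 and 5.48 against 59.5 and 51.1 CPM (-3.56 ± 0.34). *Slfn5*, an interferon-inducible Schlafen gene, stood at 70.4 and 63.9 against 389 and 398 CPM (-2.66 ± 0.17, edgeR adjusted p = 1.63e-07). *Adgrg6*, *Cxadr*, *Clca3a1*, *Serpina3g* and *Cyp4b1* fell by 2.53 to 3.44. *Bglap2* and *Col10a1*, made by osteoblasts and hypertrophic chondrocytes, completed the 10, but their level in the other cells came mainly from replicate 2 (477 and 206 CPM, against 47.6 and 18.7 CPM in replicate 1), and neither was lower without the collagen-rich and *Cd79a* cells, at 0.20 and 0.15.

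The lists were also read within a class, which keeps the class of the compared cells alike but not the RNA of other cells in the sums. Among capillary-like cells 513 of 9897 genes were higher (5.18%) and 286 lower (2.89%) in the cycling ones, with a median of -0.08, a comparison added after seeing the data. Among sinusoidal-like cells 581 were higher (5.87%) and 316 lower (3.19%). Markers of other cells moved in these sums. Of 4 tested chondrocyte genes 4 were higher in sinusoidal-like cells (median 6.53) and 2 lower in capillary-like cells (median -4.22). Of 8 stromal genes 3 were higher and 1 lower in capillary-like cells, and of 4 erythroid genes 2 were lower in sinusoidal-like cells. The part of such RNA in the within-class values was not tested. Of the 13 sinusoidal genes outside the class markers 4 fell in capillary-like cells (median -0.68) and 10 in sinusoidal-like cells (median -1.07), against 12 over all endothelial cells. Of 5 venous genes 2 (-1.16) and 4 (-1.29) fell, where the median over all endothelial cells was -2.08. The VEGF, BMP, flow, immediate early and interferon lists had fewer lower genes within a class, and their medians are given beside the counts. The sums there held only 43 and 32 cycling capillary-like and 17 and 20 cycling sinusoidal-like cells. Not every list lost calls, and 2 Notch genes fell in each class, as over all endothelial cells. Of 10 VEGF and angiopoietin genes 0 fell in capillary-like cells (median -0.37) and 3 in sinusoidal-like cells (-0.49). Of 11 BMP and TGF-β genes 2 (-0.37) and 0 (-0.52) fell. Of 10 flow genes 0 (-0.32) and 2 (-0.17) fell, of 12 immediate early genes 3 (-0.68) and 1 (0.04), and of 14 interferon and MHC genes 3 (-0.48) and 5 (-0.51). The medians of all genes were -0.08 and -0.06 in the classes. No test was made of the list medians, and the part of the makeup of the populations in them was not tested. In the capillary-like cells alone, the named genes had these values. *Il6st* fell by 0.93 ± 0.22 (edgeR adjusted p = 0.00913) and *Ctsl* by 1.17 ± 0.15 (edgeR adjusted p = 8.14e-06). *Lrg1* fell by 1.16 ± 0.18, from 323 and 298 CPM to 118 and 174 CPM. *Slfn5* fell by 1.98 ± 0.18, *Clec14a* by 1.12 ± 0.15, *Hes1* by 1.13 ± 0.17 and *Cdkn1c* by 1.69 ± 0.22. *Cdkn2c* rose by 3.46. *Cxcl12* fell by 2.46 ± 0.49. Of 18 general endothelial genes 4 fell. Both *Tgfbr2* (-1.10) and *H2-K1* (-0.56) fell, while *Txnip* (-0.33, edgeR adjusted p = 0.193) and *Nrp1* (-0.32, edgeR adjusted p = 0.184) did not pass.

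The *Pdgfra-GFP* library, which chose no member, held 360 cells of the endothelial gate with at least 1000 genes, of which 27 were cycling (7.5%, 5.0 to 10.7). It is a sort for a stromal reporter, and 7 of these 27 and 120 of the other 333 endothelial cells were collagen-rich or held *Cd79a*. Capillary-like cells there cycled in 20 of 123 (16.3%, 10.2 to 24.0) and sinusoidal-like cells in 2 of 107 (1.87%, 0.227 to 6.59), in the same order as in the metaphysis. *Aplnr* stood there at 352 CPM against 291 CPM between cycling and other endothelial cells, *Ctsl* at 187 CPM against 1443 CPM, *Slfn5* at 43.1 CPM against 240 CPM and *Lrg1* at 129 CPM against 1068 CPM. *Cdkn2c* stood at 194 CPM against 17.7 CPM. Other genes called lower in the metaphysis were not lower there. *Rgcc* had a log2 ratio of 0.38 in this library and *Nrp1* of 0.00069. The median ratio of the capillary class markers was 0.27, against -0.39 and -0.22 in the metaphyseal libraries. These are values of 1 library with no test.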

How the data were processed

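Droplet scRNA-seq counts of 3 mouse libraries were used. The authors made the deposited UMI counts with bcl2fastq, fastp 0.20 and STAR 2.7.3a (STARsolo, set to give unfiltered output as Cell Ranger does) on mm10 with the H2B-GFP transgene added, and deposited them per gene and barcode with no cell filter and no normalization. Barcodes with at most 15% mitochondrial and 30% ribosomal protein UMIs and the minimum of genes given above were kept. The members and all gene lists were chosen with earlier results of these data known.

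Counts were summed per library over cycling and other endothelial and stromal cells, and these 8 sums were fitted in edgeR 4.0.16 (R 4.3.3) with TMM factors, filterByExpr and the library as a block. The quasi-likelihood test was read at a Benjamini-Hochberg adjusted p under 0.05, and fold changes are cycling over other cells on the log2 scale. DESeq2 1.42.0 gave an alternative test and alternative size factors. Scrublet (scanpy 1.11.5) was used to look for doublets, which were kept. Named genes were up to 4 of each list with the largest absolute log2 fold change at a mean of at least 20 CPM, every class marker, and the 10 highest and 10 lowest called genes outside the lists, and any other is said to be chosen later. Library totals are given in the opening, and shares carry exact binomial intervals. Alternatives were other cycle and quality thresholds, depth, scaling, filters and left-out cells. The block stands for the library, since each library gave all populations compared. The sources do not say whether cultures or animals were shared.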

Additional observations from a re-analysis of the deposited data

Results flagged for a closer look

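For 22 genes among those named by the rule or singled out, the difference between cycling and other cells was itself different in endothelial and stromal cells (edgeR quasi-likelihood interaction, Benjamini-Hochberg adjusted p under 0.05). Further list members that are not named also passed. Values are the endothelial minus the stromal log2 fold change. The difference was positive for *Cdkn2c* (2.98), *Cdkn2d* (1.19), *Rrm2* (1.61), *Hist1h1b* (2.72), *Hist1h2ap* (2.85) and *Hist1h2ae* (2.78), genes of the cell cycle with positive fold changes in both lineages. It was also positive for *Kitl* (3.35), which had 0.38 in endothelium and -2.97 in stroma, and for *Rgcc* (1.14), *Cxcl12* (1.74), *Igfbp3* (2.34), *Nrp1* (1.25), *Nid1* (1.27), *Lamc1* (1.87), *Bst2* (0.79) and *Isg15* (1.64), each with a lower value in stroma than in endothelium. It was negative for *Ccnd1* (-1.90), *Col6a3* (-2.79), *Adamts5* (-1.17), *Unc5b* (-1.38), *Il6st* (-1.22), *Ctsl* (-0.66) and *Kcnj8* (-2.46). *Col6a3* was one of the 5 genes that chose the stromal cells, so its value is a description and not a test. Cycling stromal cells were deeper, with a median of 15981 and 16225 UMIs against 6438 and 6518 in other stromal cells, and the part of depth and of stromal cell types in these differences was not tested.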

How the results depend on the processing

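The mean share of cycling cells over both libraries was 6.96% and became 8.55% from 3 cycle UMIs on, 5.04% from 10 on, 6.40% with cells from 1000 genes on and 6.68% at no more than 10% mitochondrial UMIs (single libraries 6.86% to 7.07%). For capillary-like cells 10.1% became 12.3%, 6.79%, 9.43% and 9.57% in the same order, 11.5% in cells from 5000 UMIs on and 9.56% with classes made after thinning. For sinusoidal-like cells 4.08% became 4.93% and 3.22% from 3 and from 10 cycle UMIs on, and 5.09% and 3.07% in the last 2 settings. In the *Pdgfra-GFP* library the share was 5.0% from 10 cycle UMIs on. Thinning to 3000 UMIs moved the mean share of members with *Aplnr* from 86.8% to 77.2%, *Ramp3* from 63.3% to 44.3%, *Stab2* from 27.0% to 15.3% and *Vcam1* from 21.8% to 15.4%.

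The 856 higher genes became 513 in capillary-like cells, and other alternatives stayed within 1.5 times. The 1136 lower genes became 2023 with no filter, 661 with library sizes free of cycle genes, 546 with endothelial sums only, 485 with DESeq2, 584 with the *Pdgfra-GFP* library, 452 after thinning, 286 in capillary-like and 316 in sinusoidal-like cells. Without the replicate block 855 were higher and 1112 lower, and the deviations of paired sums correlated at 0.0657 over genes. The interaction counts were 237 and 374 with no filter, and 100 and 101 without the block. Of 139 named genes 58 kept direction and side of the threshold under every alternative. Signs turned in capillary-like cells for *Id2* (0.0059), *Matn3* (-0.39) and *Bglap2* (0.53), in sinusoidal-like cells for *Ier3* (0.024), *Pfkl* (0.059) and *Isg15* (0.099), for *Alpl* without cells with stromal genes (-0.38) or without collagen-rich and *Cd79a* cells (-0.87), where *Bglap2* had 0.20 and *Col10a1* 0.15, and for *Matn3* without replicate 2 (-2.33, against 2.7 without replicate 1). The causes were not tested. Leaving out a library left no residual degrees of freedom, so those are values with no test. The 145 members limit what low genes can show.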
